A study of Homo sapiens with 12 samples.

Results

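Trimethylation of histone H3 at lysine 36 (H3K36me3) was mapped by ChIP-seq in SW620 and SW480, established human colorectal adenocarcinoma cell lines. H3K36me3 is laid down behind elongating RNA polymerase II by the methyltransferase SETD2. It therefore covers the bodies of transcribed genes, while H3K4me3 marks their promoters, and long stretches of it show which genes a cell is reading. As background, SW480 was established from a primary tumour and SW620 from a later lymph node metastasis of the same patient.

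The members were all regions of the H3K36me3 lists, 45466 in SW620 and 52664 in SW480, together 98130 of the 262931 regions in the series' 10 lists. The SW620 cells carry the label Dukes' type C and the SW480 cells Dukes' type B. Both lines were untreated and grown in DMEM with serum, and each had 1 library per antibody, so no difference between the lines has a replicate check and no p-value is given. Regions of a line lying within 5 kb of each other were joined into domains, of which there were 15310 in SW620 and 16707 in SW480. A domain counted as shared when at least 1 bp of it lay in a domain of the opposite line. The rest were called line-only. Line-only describes the lists: a stretch can fall just under the calling threshold in the other line. In a bulk library, a mark carried by fewer cells and a weaker mark in every cell cannot be told apart. Positions are hg19, counted from 1. Gene names are background knowledge of what lies at a position; no file used here assigns regions to genes.

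The SW620 library was the deeper, with 46006580 tags against 37446361 in SW480. The caller required 46 tags per window in SW620 and 38 in SW480, and it counted at most 2 tags per bp in SW620 and 1 in SW480. Regions held 35.2% of the SW620 tags and 32.8% of the SW480 tags. The part of depth and of these caller settings in the results was not tested.

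The first comparison asked how much of the genome lay in H3K36me3 domains. SW620 had fewer domains, with a ratio of 0.916 to SW480. Its domains spanned 178 Mb in total, against 197 Mb in SW480, a ratio of 0.907. The called regions inside them covered 135 Mb in SW620 and 145 Mb in SW480, or 75.9% and 73.7% of the span. With all SW620 regions and an equal number of the widest SW480 regions, the lists gave 15310 domains in SW620 and 15824 in SW480 (ratio 0.968). They spanned 178 and 181 Mb (ratio 0.983). The deeper library gave the smaller domain set. Only the longer SW480 list was trimmed for equal numbers, which by itself makes the deficit in number and span smaller. Nothing about the lines is read from that. A typical domain was alike in the lines: the median span was 5418 bp in SW620, against 5281 bp in SW480, and 90% of domains were shorter than 31.2 kb in both. Domains of at least 26.6 kb held 50% of the SW620 span, and those of at least 27.8 kb 50% of the SW480 span. The sign of the small median difference turned when regions within 10 kb were joined. The lower total of SW620 was spread widely, since its span was the smaller on 21 of 23 chromosomes. The ratio was lowest on chromosome 2, with 12.7 Mb in SW620 and 15.8 Mb in SW480 (0.803), and on chromosome 17, with 11.3 and 13.8 Mb (0.818). It was highest on chromosome 8, with 6.61 and 6.49 Mb (1.02).

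Domains were built from runs of regions with short gaps, on average 2.97 regions per domain in SW620 and 3.15 in SW480. Single-region domains made up 43.2% in SW620 and 42.9% in SW480, and the most regions in any domain was 32 in SW620 and 53 in SW480. Gaps thinned out steadily across the joining distance. Just inside it, 1775 gaps in SW620 and 2207 in SW480 were over 4 and up to 5 kb long. Just outside it, 1317 and 1608 were over 5 and up to 6 kb long.

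Domains fell into 3 classes by size. Single domains, each a lone region of the narrowest width the caller returned (1.00 kb), numbered 2778 in SW620 and 3178 in SW480. They were 18.1% of the SW620 and 19% of the SW480 domains but 1.56% and 1.62% of the span. Long domains, spanning at least 20 kb, numbered 2814 in SW620 and 3046 in SW480. They were 18.4% and 18.2% of the domains and held 61.3% and 62.5% of the span. The 9718 SW620 and 10483 SW480 domains in between held the rest. Most regions of that narrowest width did not stand alone: 9866 of 12644 in SW620 and 11627 of 14805 in SW480 lay inside joined domains.

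**Figure D1:**
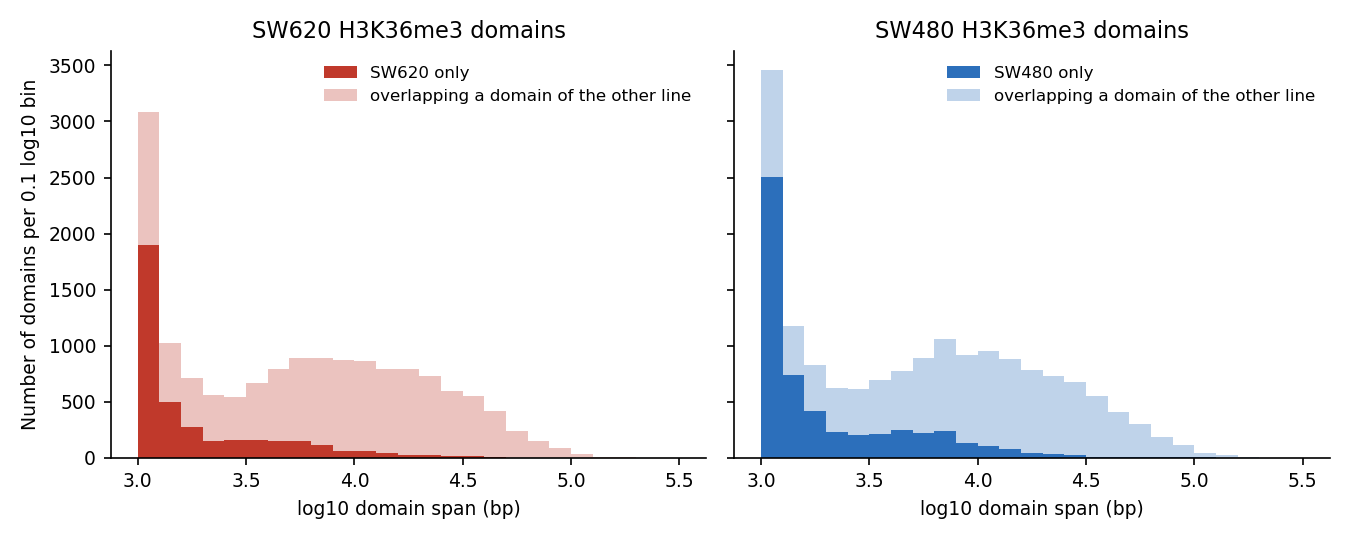
Number of H3K36me3 domains per bin of 0.1 log10 (bp) against domain span, for SW620 (left) and SW480 (right); dark bars are line-only domains and pale bars, stacked on them, domains overlapping one of the other line. Dark bars gather at the narrowest spans, where single domains lie, and are a small part of the domains of 20 kb and more.

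The second comparison asked how far the lines marked the same places. Of the SW620 domains, 11514 (75.2%, 95% Wilson interval 74.5 to 75.9) overlapped an SW480 domain. Of the SW480 domains, 11233 (67.2%, 66.5 to 67.9) overlapped an SW620 domain. The line-only domains were thus 3796 in SW620, a percentage of 24.8, and 5474 in SW480, a percentage of 32.8. Intervals cover counting error only, and neighbouring domains are not independent. By length, 140 Mb was joined span in both lines, which is 78.4% of the SW620 span, 71.1% of the SW480 span and 59.4% of the span of either. When the SW480 list was trimmed to its widest regions, equal in number to all SW620 regions, 71.5% of SW620 and 70.3% of SW480 domains were shared. The gap was then 1.26 percentage points. Trimming the SW480 list alone also brings the numbers of domains together, which by itself narrows this gap.

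Sharing varied with size more than with the line. Long domains were shared in 97.9% of cases (97.3 to 98.3) in SW620 and 96.8% (96.2 to 97.4) in SW480. Single domains were shared in 37.4% (35.7 to 39.3) in SW620 and 27.1% (25.6 to 28.7) in SW480, so 62.6% and 72.9% of them were line-only. Domains in between were shared in 79.4% (78.6 to 80.2) in SW620 and 70.8% (69.9 to 71.7) in SW480, which left 20.6% and 29.2% line-only. A wider target is overlapped more easily, and no background for this was computed. The line-only domains held 10.9 Mb (6.11%) of the SW620 span and 18.4 Mb (9.34%) of the SW480 span.

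**Figure D2:**
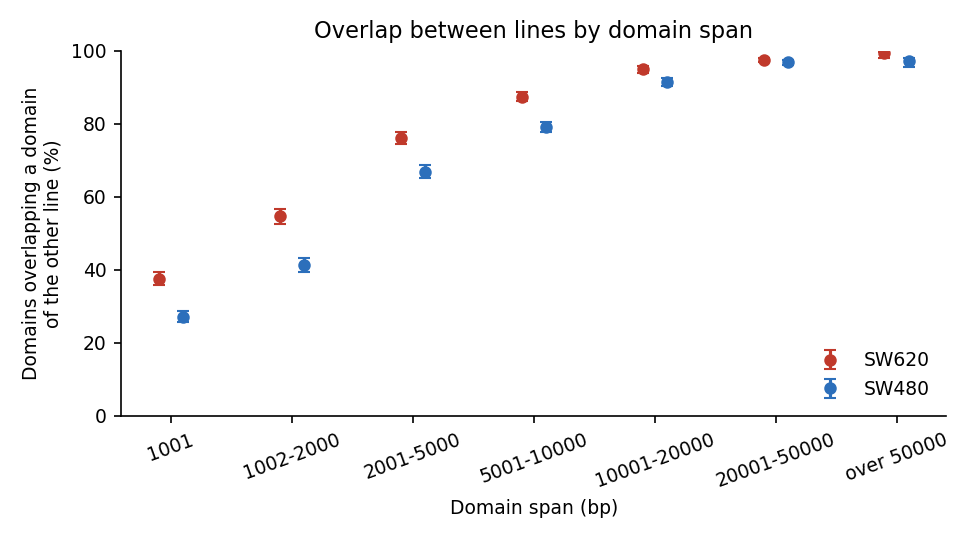
Percentage of H3K36me3 domains overlapping any domain of the opposite line, by domain span in bp, for SW620 and SW480; bars are 95% Wilson intervals. The share climbs with span, from 37.4% of SW620 and 27.1% of SW480 single domains to 99.3% and 97.1% of domains over 50 kb.

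Single domains mostly lay near other domains of their own line, with 73.1% in SW620 and 75.5% in SW480 within 25 kb of one. The median distance to the next domain of the same line was 12 kb in SW620 and 11.4 kb in SW480, and 216 SW620 and 206 SW480 singles lay over 100 kb from any. They rarely met each other: 161 singles of either line lay on a single of the other, which is 5.80% of the SW620 and 5.07% of the SW480 singles. More lay on wider domains. In SW620, 658 lay on SW480 domains of intermediate size and 221 on long ones, and in SW480, 538 lay on intermediate and 162 on long SW620 domains. A further 513 SW620 and 499 SW480 singles lay within 5 kb of a domain of the other line without touching it. That left 1225 SW620 singles (44.1%) and 1818 SW480 singles (57.2%) with no domain of the other line on or near them. H3K4me3 of the own line was within 5 kb of 14.5% of line-only and 17.5% of shared singles in SW620. In SW480 the values were 17.5% of line-only and 15.4% of shared singles. For long domains of all kinds it was 61.6% in SW620 and 62.3% in SW480. A long domain with its margins is a wider target than a single, and no background for this was computed.

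Most of the span of a typical long domain also lay in domains of the other line, while breaks and differences in extent were common. The median long SW620 domain had 95.5% of its span inside SW480 domains, and the median long SW480 domain had 90.1% inside SW620 domains. At least 75% of the span was common for 2216 long SW620 domains (78.7%) and 2131 long SW480 domains (70.0%). Pairs of domains that overlapped no other domain numbered 7818. In 1405 of them both were long, and 776 of these (55.2%) differed in span by at most 2 kb. The SW620 member was the longer in 591 of the 1405 pairs (42.1%, 39.5 to 44.7) and the SW480 member in 814. Breaks were frequent as well. A long SW620 domain met at least 2 SW480 domains in 764 cases (27.1%), and a long SW480 domain met at least 2 SW620 domains in 934 cases (30.7%).

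Among the 5 longest domains of each line, some were nearly the same in both. On chromosome 8, the domain over PRKDC, the catalytic subunit of DNA-dependent protein kinase, ran from 48685071 to 48893450 in SW620 (208 kb) and from 48681067 to 48893551 in SW480 (212 kb). On chromosome 3, the domain over SMARCC1, a core subunit of the SWI/SNF remodelling complex, spanned 193 kb in SW620 and 195 kb in SW480. Other loci among the longest domains were broken in the other line. At CEMIP on chromosome 15, which encodes a hyaluronan-binding protein, SW620 had 1 domain of 172 kb in 8 broad regions, 97.1% covered. SW480 had 8 domains there over 66.1% of the same span, in 31 regions. At CDK5RAP2 on chromosome 9, which encodes a centrosomal protein, the SW620 domain of 190 kb met 7 SW480 domains. The converse was seen at USP34, a deubiquitinase gene on chromosome 2, where an SW480 domain of 136 kb met 9 SW620 domains. DOCK5 on chromosome 8, which encodes a guanine nucleotide exchange factor, likewise had an SW480 domain of 155 kb over 8 SW620 domains. SNTB1 on chromosome 8 and TNIK on chromosome 3, a kinase gene of Wnt signalling, had SW620 domains of 160 and 121 kb that met 10 and 8 SW480 domains.

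The orientation of long domains was read from H3K4me3, which lies at the start of active genes. H3K4me3 of the own line was found within 5 kb of exactly 1 end in 1317 long SW620 domains (46.8%, 45.0 to 48.6) and in 1417 long SW480 domains (46.5%, 44.8 to 48.3). It was at both ends in 13.0% and 13.5%, and nowhere at the domain in 38.4% and 37.7%. Along the domains with 1 such end, H3K36me3 regions of the own line filled 10 equal parts of the length, each to between 78.4% and 84.3% in SW620 and between 74.1% and 82.8% in SW480. The outermost parts are high by construction, since a domain begins and ends with a region. The own line sets the edges, so H3K36me3 of the other line tends by construction to cover less of the ends. In SW620 domains it covered 69.1% of the bases of the first part, up to 71.9% in the middle, 68.2% of the ninth part and 61.4% of the last part. In SW480 domains it covered 59.7% of the first part, up to 70.0% in the middle and 58.5% of the last part. Nothing is read from the lower values at the ends. H3K4me2, which did not set the orientation but lies at the same promoters, covered 16.9% of the first part and 1.52% of the last in SW620. In SW480 the values were 18.1% and 1.28%.

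Domain edges were compared in 684 pairs of long domains that overlapped no other domain and had H3K4me3 at the same single end in both lines. Broken domains were left out by this choice. In these pairs the edge at the H3K4me3 end differed by a median of 722 bp and the far edge by a median of 1012 bp. The H3K4me3 end differed by over 5 kb in 12 pairs (1.75%) and the far end in 58 (8.48%). The choice of pairs tied the first of these edges to a mark found in both lines and left the far edge free, so nothing is read from the difference between the ends. Among the 58 pairs that differed at the far end, SW620 reached further in 20 and SW480 in 38.

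The third comparison concerned long domains called in 1 line alone. There were 60 in SW620, a percentage of 2.13 of its long domains, and 96 in SW480, a percentage of 3.15. They held 1.89 Mb in SW620 and 3.92 Mb in SW480. The 10 longest of each line differed in size: 40.4 to 92.4 kb in SW620 and 76.3 to 273 kb in SW480.

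The longest SW620-only domain, on chromosome 12 from 92148449 to 92240850 (92.4 kb, 14 regions), was not assigned to a gene. It ended at a cluster of H3K4me3 and H3K27ac regions of SW620, with 3 H3K4me3 and 6 H3K27ac regions within 5 kb of the domain in SW620 against 0 and 1 in SW480. The second, on chromosome 9 from 117782860 to 117853707 (70.8 kb, 14 regions), lay at TNC, which encodes the matrix protein tenascin-C. No H3K4me3, H3K27ac or H3K4me2 region of either line lay within 5 kb of it. A promoter further away is not counted, so the gene itself may carry these marks.

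At PROM1 on chromosome 4, which encodes the surface protein CD133, an SW620-only domain ran from 15979306 to 16026023 (46.7 kb, 14 regions). Together with 2 more domains up to 16079989, SW620 had 79.5 kb of joined span over 101 kb in 27 regions, and SW480 had 0 regions. H3K4me3 was present there in both lines, with 1 region each. At RASSF6, a gene of the Ras-association domain family, the domain lay on chromosome 4 from 74439522 to 74481466 (41.9 kb). Within 5 kb of it, SW620 had 2 H3K4me3, 4 H3K27ac and 6 H3K4me2 regions. SW480 had 1, 0 and 1. At TMPRSS2 on chromosome 21, which encodes a transmembrane serine protease, the domain from 42834348 to 42874701 (40.4 kb) had 2 H3K4me3 regions in SW620 and 1 in SW480.

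CDK6, the cyclin D-dependent kinase gene of the G1 phase, differed over a long stretch. Over 229 kb of chromosome 7 from 92233649 to 92462406, SW620 had 4 domains in 45 regions with 209 kb of joined span. SW480 had 5 domains in 6 regions with 14.5 kb. The same stretch held 22 H3K27ac regions, 13 H3K4me2 regions and 8 FOXA2 peaks in SW620, against 3, 3 and 0 in SW480. Its H3K4me3 regions numbered 1 in SW620 and 2 in SW480. The remaining 5 of the 10 were at MYT1 (chromosome 20, 55.1 kb), a zinc finger gene of neural cells, COLGALT2 (chromosome 1, 41.1 kb), a collagen galactosyltransferase gene, SARDH (chromosome 9, 40.6 kb), a mitochondrial sarcosine dehydrogenase gene, and WIPF1 (chromosome 2, 40.6 kb), an actin regulator gene, beside the CDK6 domain itself (50.9 kb).

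The longest SW480-only domain was also the longest of all domains in either line. It covered GLI3, a zinc finger transcription factor gene of Hedgehog signalling, on chromosome 7 from 42000090 to 42272837 (273 kb, 38 regions, 82.4% covered). SW620 had 0 H3K36me3 regions in it and 0 within 20 kb of it. The promoter side was marked in both lines: beyond the far end, an H3K4me3 region lay between 276.2 and 278.8 kb from the domain's start in SW620 and between 273.8 and 279.4 kb in SW480. H3K27ac there was 1.5 kb wide in SW620 and 8.1 kb wide in SW480. A second acetylated site inside the domain was 1.6 kb wide in SW620 and 10.1 kb wide in SW480.

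**Figure D3:**
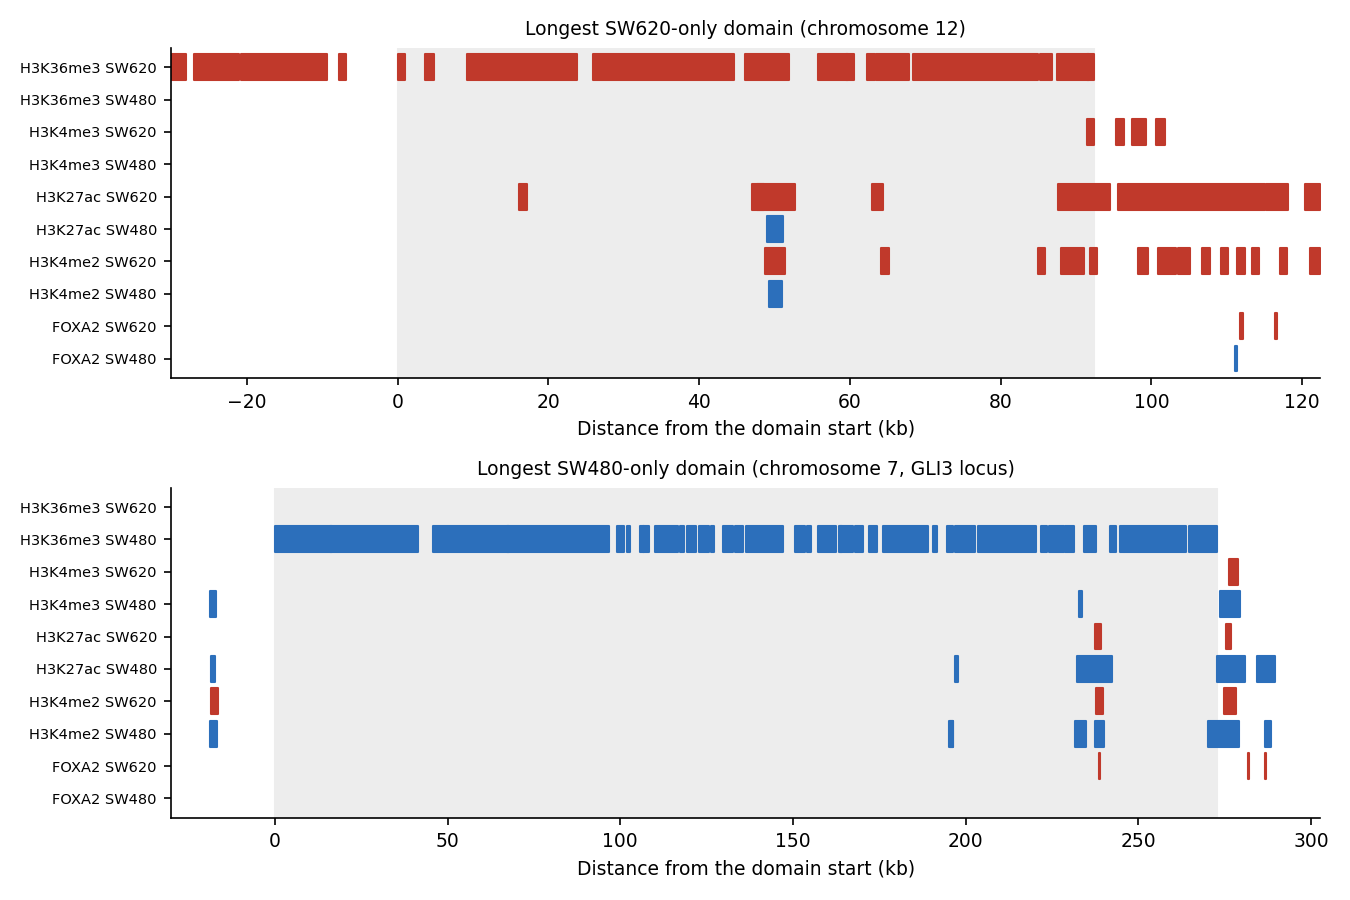
Called regions of 5 antibodies at the longest SW620-only domain (upper panel) and the longest SW480-only domain, at GLI3 (lower panel), in SW620 (red) and SW480 (blue), against distance in kb from the start of the domain, which is shaded. At GLI3 the H3K36me3 row of SW620 is empty while H3K4me3 lies just beyond the right end in both lines; in the upper panel SW480 has no H3K36me3 or H3K4me3 region.

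Other long SW480-only domains lay at named genes. At ADAMTS17, a secreted metalloprotease gene on chromosome 15, SW620 had 0 regions over 361 kb from 100517977 to 100879205, against 77 regions and 299 kb of joined span in SW480. RUNX2, the runt factor gene of bone formation, had a domain of 122 kb on chromosome 6 from 45396430 to 45518700. Within 5 kb of it, SW620 had 0 H3K4me3 and 4 H3K4me2 regions, and SW480 had 2 and 6. A promoter further away is not counted, so the gene may still carry H3K4me3 in SW620. PHLDB2 on chromosome 3 (95.4 kb), whose product anchors microtubules at the cell cortex, had 1 H3K4me3 region in each line. Named genes also lay at 2 further domains, PRR5L (chromosome 11, 94.8 kb), a regulator of mTOR signalling, and ABLIM1 (chromosome 10, 76.3 kb), an actin-binding LIM protein gene. A pair of domains on chromosome 2 (121 and 89.1 kb) and a domain on chromosome 17 (95.7 kb) were not assigned to genes. At CHST11, a chondroitin sulfotransferase gene on chromosome 12, the main SW480 domain (239 kb) was not line-only by the 1 bp rule. It met 6 SW620 domains over 3.73% of its span. A second SW480 domain beside it (57.6 kb) was line-only, and the stretch given next holds both. Over 305 kb, SW620 had 7 regions with 8.90 kb of joined span there, and SW480 had 66 regions with 296 kb.

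A few shorter line-only domains, chosen after their values were seen, lie at genes known from cancer and epithelial biology. In SW620 they were at MACC1, named for its association with metastasis of colon cancer (chromosome 7, 20172468 to 20210811, 38.3 kb), SMAD6, an inhibitor of BMP signalling (chromosome 15, 35.4 kb), PPARG, a nuclear receptor of intestinal differentiation (chromosome 3, 31.7 kb), and ROBO1, an axon guidance receptor (chromosome 3, 31.2 kb). In SW480 they were at SHROOM3, a regulator of epithelial cell shape (chromosome 4, 69.9 kb), CD44, a hyaluronan receptor (chromosome 11, 58.0 kb), VDR, the vitamin D receptor (chromosome 12, 46.8 kb), EPAS1, a hypoxia-inducible factor (chromosome 2, 44.1 kb), and EGFR, the epidermal growth factor receptor (chromosome 7, 39.0 kb). The other line had 0 H3K36me3 regions within 20 kb of each of these 9 domains. That is not particular to them. Of the 10 longest line-only domains, only 3 in SW620 and 3 in SW480 had a region of the other line within 20 kb.

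Shared pairs with the largest difference in span were listed as well. They were picked for that difference, so a much shorter member follows from the choice and nothing is read from it. Of the 7818 pairs that overlapped only each other, 93 differed in span by over 20 kb. EPHB2, an Eph receptor gene that is active in colon crypts, had an SW620 domain of 104 kb on chromosome 1 and an SW480 region of 1.00 kb. Over the whole stretch of 203 kb, SW620 had 36 regions and SW480 had 1, while each line had 1 H3K4me3 region. The next pairs longer in SW620 were at PIR on chromosome X (53.6 and 1.00 kb), REV3L on chromosome 6 (49.7 and 1.00 kb), the catalytic subunit of DNA polymerase zeta, and PLPP3 on chromosome 1 (47.0 and 1.00 kb), a lipid phosphatase. The part of CDK6 nearest the start of its stretch was the fifth (40.1 and 1.68 kb). Pairs shorter in SW620 were at PDZD2 on chromosome 5 (12.9 kb in SW620 and 130 kb in SW480), EDARADD on chromosome 1 (1.57 and 70.4 kb), CTDSPL on chromosome 3 (3.63 and 64.2 kb), HEG1 on chromosome 3 (1.00 and 59.7 kb), and SMARCA1 on chromosome X (1.35 and 57.7 kb), an ISWI remodeller gene. Within 5 kb of these domains, H3K4me3 was called in both lines at EDARADD, CTDSPL and SMARCA1, and in neither at PDZD2 and HEG1. Among the pairs longer in SW620, it was called in both lines at PIR. It was called in neither at the EPHB2, REV3L, PLPP3 and CDK6 pairs. A promoter further from the domain is not counted here, so the genes themselves may carry the mark.

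The other antibodies were then set against the long domains. H3K4me3 was found less often at line-only than at shared long domains, and within a 5 kb margin most of the domains that had it had it in both lines. Of the 60 long SW620-only domains, 24 had H3K4me3 of SW620 within 5 kb (40.0%, 28.6 to 52.6) and 18 had H3K4me3 of SW480 (30.0%, 19.9 to 42.5), with 17 having both. Of the 96 long SW480-only domains, 27 had H3K4me3 of SW620 (28.1%, 20.1 to 37.8) and 40 had H3K4me3 of SW480 (41.7%, 32.3 to 51.7), with 27 having both. Shared long domains had it in 62.1% for SW620 and 63.0% for SW480, each in its own line. The order was the same within bands of span. Between 20 and 30 kb, 33.3% of line-only and 59.0% of shared domains had it in SW620, and 36.5% and 60.1% had it in SW480. Between 30 and 50 kb the values were 43.5% and 62.6% in SW620, and 41.7% and 64.0% in SW480. No test of these differences was made. When the H3K4me3 region had to overlap the domain itself, the shares at SW620-only domains were 18.3% for SW620 and 8.33% for SW480 H3K4me3, and at SW480-only domains 5.21% and 17.7%. Under that rule, most line-only domains with H3K4me3 of their own line had none of the other line.

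H3K27ac, a mark of active promoters and enhancers, was more frequent in the line that carried the long domain, with overlapping intervals at SW620-only domains. H3K27ac lay within 5 kb of 53.3% (40.9 to 65.4) of long SW620-only domains in SW620 and 40.0% (28.6 to 52.6) in SW480. At long SW480-only domains it was 39.6% (30.4 to 49.6) in SW620 and 65.6% (55.7 to 74.4) in SW480. Both lines were scored at the same domains, so these shares are paired, which the intervals ignore. Of the SW620-only domains, 10 had H3K27ac in SW620 alone and 2 in SW480 alone. Of the SW480-only domains, 26 had it in SW480 alone and 1 in SW620 alone. No test of this was made. At shared long domains the lines were alike, with 69.5% in SW620 and 68.7% in SW480 around SW620 domains. H3K4me2 lay at 30 of the 60 long SW620-only domains in each line, with 25 domains having it in both. At SW480-only domains H3K4me2 was at 63.5% in SW620 and 66.7% in SW480. Its share thus differed little between the lines at these domains.

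FOXA2, a forkhead factor of endoderm, was read from lists of unequal length, 12372 peaks in SW620 and 5207 in SW480. Its SW620 peaks lay within 5 kb of 38.3% (27.1 to 51.0) of long SW620-only domains, and of 19.8% (18.3 to 21.3) of shared ones. They lay near 34.4% (25.6 to 44.3) of long SW480-only domains too, so a high share was not tied to the line in which the domain was called. SW480 peaks lay near 11.7% of SW620-only and 8.33% of SW480-only long domains, against 4.65% and 5.29% of the shared ones. Between 20 and 30 kb of span, SW620 peaks lay near 24.2% (12.8 to 41.0) of SW620-only and 16.1% of shared domains. Between 30 and 50 kb the values were 56.5% and 19.3%. For SW480 peaks at SW480-only and shared domains they were 5.77% and 4.00% in the first band, and 0% and 4.50% in the second.

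**Figure D4:**
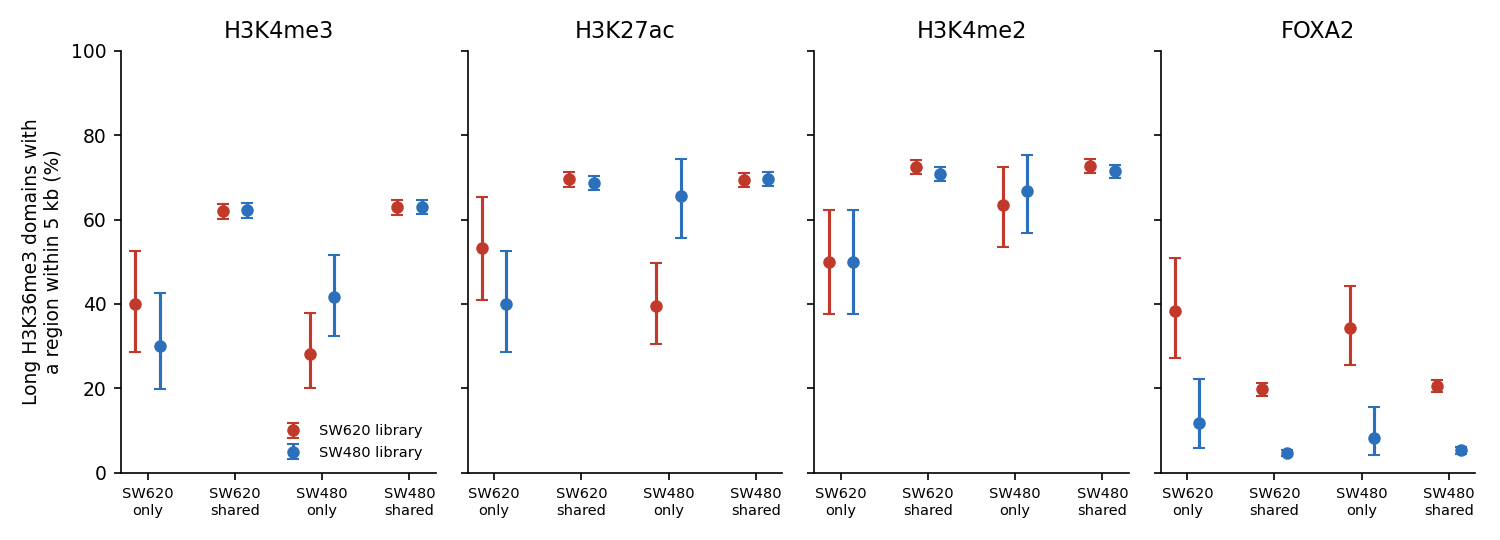
Percentage of long H3K36me3 domains (span of at least 20 kb) with a region of H3K4me3, H3K27ac, H3K4me2 or FOXA2 within 5 kb, in the SW620 library (red) and the SW480 library (blue); bars are 95% Wilson intervals. Groups on the horizontal axis are 60 SW620-only, 2754 shared SW620, 96 SW480-only and 2950 shared SW480 domains. The lines coincide at shared domains for the 3 histone marks, and H3K27ac parts by line at SW480-only domains, with 39.6% in SW620 and 65.6% in SW480.

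Line-only domains were also found in runs along the chromosome. Runs of at least 5 consecutive line-only domains numbered 88 in SW620 and 180 in SW480 and held 673 (17.7%) of the SW620-only and 1271 (23.2%) of the SW480-only domains. How many runs such lists give by chance was not computed. The longest SW620 run, 29 domains on chromosome 12 from 79270845 to 79846907, lay at SYT1, which encodes the synaptic vesicle protein synaptotagmin. It held 193 kb of span, with 0 H3K4me3 and 9 H3K27ac regions in SW620 and 1 of each in SW480. The second, 27 domains on chromosome 6 from 20693931 to 21600033, included CDKAL1, a tRNA-modifying enzyme gene, and had 4 H3K4me3 and 13 H3K27ac regions in SW620 and 4 and 6 in SW480. The third, 19 domains over 2.98 Mb on chromosome 7, began at SEMA3A, which encodes a secreted semaphorin, and held 8 H3K4me3 and 28 H3K27ac regions in SW620 and 3 and 4 in SW480. SW480 had 0 domains in each of these 3 runs.

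Of the SW480 runs, the longest had 24 domains on chromosome 12 from 44902124 to 45726978, at NELL2, which encodes a secreted glycoprotein. It held 2 H3K4me3 and 3 H3K27ac regions in SW620 and 2 and 6 in SW480. The second had 23 domains on chromosome 7 from 2956899 to 4285714, which holds the adhesion gene SDK1, with 2 H3K4me3 regions and 1 H3K27ac region in SW620 and 4 and 10 in SW480. SW620 had 0 domains in both. The third, on chromosome 2, stretched 19 short domains with 39.2 kb of span over 6.41 Mb, with 4 SW620 domains in between. It held 13 H3K4me3 and 13 H3K27ac regions in SW620 and 13 and 10 in SW480, so H3K27ac was not the more frequent in SW480 there.

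At the scale of 5 Mb windows, 7 of 576 windows had at least 2-fold more joined span in SW620, with at least 100 kb there, a percentage of 1.22. In SW480 there were 19, a percentage of 3.30. SW620 had more span in 212 windows and SW480 in 364, with a median difference of -17.1 kb (SW620 minus SW480). The largest differences in favour of SW620 were on chromosome 8 from 120 to 125 Mb (669 kb in SW620 and 409 kb in SW480), chromosome 9 from 5 to 10 Mb (416 and 158 kb) and chromosome 12 from 75 to 80 Mb (370 and 114 kb). They were followed by chromosome 5 from 0 to 5 Mb (553 and 368 kb) and chromosome 12 from 90 to 95 Mb (248 and 68.1 kb). The largest in favour of SW480 were on chromosome 17 from 55 to 60 Mb (894 kb in SW620 and 1288 kb in SW480), chromosome 2 from 220 to 225 Mb (222 and 613 kb) and chromosome 15 from 100 to 105 Mb (145 and 530 kb). Next came chromosome 8 from 130 to 135 Mb (49.0 and 396 kb) and chromosome 7 from 40 to 45 Mb (325 and 657 kb), the window that holds GLI3. Regions were called against the input of the same line; copy number was not measured here, and its part in these windows was not tested.

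**Figure D5:**
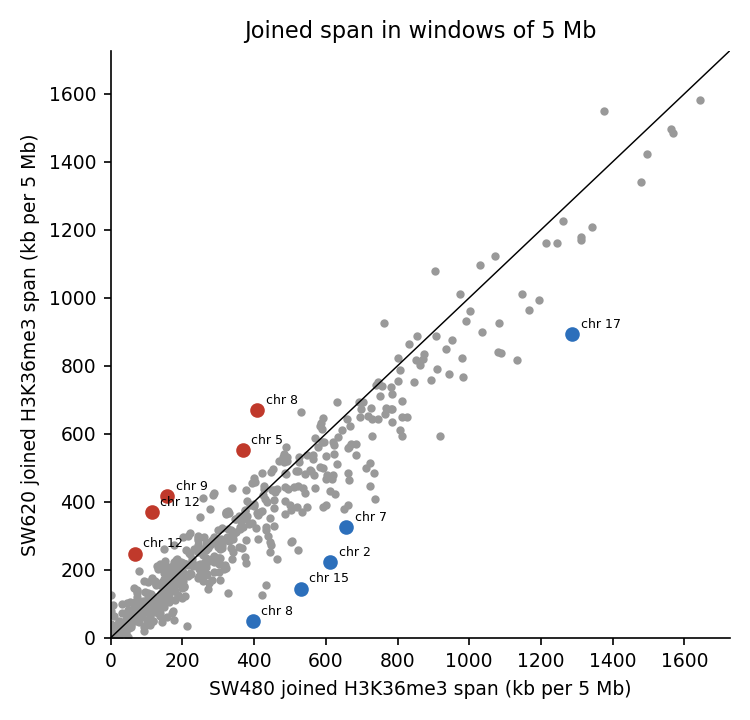
Joined H3K36me3 span in kb per window of 5 Mb, SW620 on the vertical and SW480 on the horizontal axis, with 1 point per window (576 windows) and the line of equality. Red and blue points, labelled by chromosome, are the 5 windows with the largest difference in favour of SW620 and of SW480; 364 windows lie below the line and 212 above it.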

How the data were processed

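ChIP-seq regions of 5 antibodies in SW620 and SW480 were used, 1 library each. Per the file headers, the authors ran HOMER findPeaks on every library with that line's input as background, with a region size of 1000 bp, at least 4-fold over input and over the local background, and a false discovery rate of 0.001. Called windows were stitched into variable regions and centred on the likely nucleosome-free site, which can move region edges. Positions refer to hg19 (source: the submitters' processing notes). Neither aligner nor HOMER version is stated in the labels or headers. The deposited score column is 1 in every row and was not used, so no signal per region was analysed. Tag counts are quoted from the file headers.

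H3K36me3 regions within 5 kb were joined with Python 3.11.15, numpy 2.4.6 and pandas 2.3.3. Domain numbers and overlaps equalled those of bedtools 2.31.1, and 100% of 2000 simulated domains were rebuilt correctly. Shares carry 95% Wilson intervals (scipy 1.17.1). Figures used matplotlib 3.10.9.

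The members, classes, lists and comparisons were chosen with earlier results of these data known. Named domains were the 5 longest per line, the 10 longest line-only, the 3 longest runs, the 5 windows and the 5 pairs with the largest difference per direction, and the 3 domains per line meeting most domains of the other. The stretches around CDK6, EPHB2, PROM1, CHST11 and ADAMTS17 were chosen after their values were seen. One SW480-only domain among the 10 longest is not reported here. The 51 gene symbols in the locus list were set against the RefSeq gene table (GRCh38.p14) for chromosome and order alone: 51 matched the chromosome, and all 35 neighbouring pairs kept their order. No coordinate of that table was used.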

Additional observations from a re-analysis of the deposited data

How the results depend on the processing

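Domain number, span, covered length and sharing, the single and long classes and H3K4me3 at long line-only domains were recomputed under other settings. So were the windows and the line-only state of the longest line-only domains, 29 results in all. The shares of the other antibodies, pairs, edges, profiles, runs and chromosome ratios were not. This gave 143 values, of which 82 stayed close to the reported one, 59 moved and 2 changed sign. A share counted as moved when it left the reported interval. A count, length, ratio or difference did so when it changed by over 1.5 times. For the span common to both lines, the interval treated a fraction of bases as a share of the SW620 domains. It is not an interval of that span, so its labels are nominal. Some of the 82 could not have changed, so their number does not measure stability. Covered length does not depend on the joining distance. Trimming the SW480 list leaves the number, span and covered length of SW620 as they were. A line-only domain also stays so when regions of the other line are removed or joined over a shorter distance. SW620 values are given first in each pair.

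Joining within 1 kb gave 31301 and 35778 domains and within 25 kb 6909 and 7082, with 272 and 302 Mb of span at 25 kb. Regions of at least 2 kb alone gave 9997 and 10759 domains with 118 and 124 Mb. The median span of SW620 minus that of SW480, 137 bp as reported, was 88.0 bp with joining within 1 kb, -302 bp within 10 kb and -936 bp within 25 kb, 211 bp without regions of the narrowest width and 466 bp with regions of at least 2 kb. The sign therefore follows the joining distance.

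The shares of domains shared were 71.4% and 63.9% with joining within 1 kb, 78.9% and 72.2% within 10 kb, 84.3% and 78.8% within 25 kb, 76.3% and 68.9% without regions of the narrowest width, and 76.0% and 70.9% with regions of at least 2 kb. With equal numbers of the widest regions (ties in width broken at random with a fixed seed) they were 71.5% and 70.3%. That setting trimmed the SW480 list alone. They were 62.8% and 53.0% when 50% of the domain had to be covered, 38.5% and 35.3% with 50% of both, and 81.7% and 73.9% when a domain within 5 kb sufficed. The difference between the lines, 7.97 percentage points as reported, was 5.12 with regions of at least 2 kb, 1.26 with equal numbers and 3.20 with 50% of both domains. SW620 had the higher share under each of these settings. The span common to both lines was 51.6%, 62.7% and 66.6% with joining within 1, 10 and 25 kb, 58.1% without regions of the narrowest width and 55.1% with regions of at least 2 kb.

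Lone regions of any width numbered 6614 and 7164, with 56.1% and 44.1% shared, and those of up to 2 kb 4773 and 5427, with 44.5% and 32.9% shared. Domains of at least 10 kb numbered 5281 and 5675, with 96.5% and 94.3% shared. Those of at least 50 kb numbered 534 and 680, and 99.3% of the SW620 ones were shared. With H3K4me3 overlapping the domain itself, 18.3% of long SW620-only domains had it in SW620 and 8.33% in SW480, and 5.21% and 17.7% of long SW480-only domains. Within 10 kb, SW620 H3K4me3 was at 38.5% of long SW480-only domains.

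The cause of these shifts was not tested beyond what the settings themselves change. No paired analysis was possible because each line had 1 library per antibody. Leaving out a replicate was not possible for the same reason. Depth per region cannot be given, since the lists hold no usable score.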
